A study of Mus musculus with 2 samples.

Results

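Genes for 10 antimicrobial and defence proteins of the gut epithelium (Retnlb, Ang4, Reg3b, Reg3g, Reg4, Saa1, Lypd8, Defb45, Pigr and Mptx1) were followed across the epithelial cells of the wild-type mouse colon. The members were chosen by name, and all 10 were present among the 17809 genes of the wild-type table. They were read in the 3008 of 7495 cells that had an Epcam value of at least 5, where Epcam encodes the epithelial adhesion molecule on which the study sorted its cells.

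The wild-type library came from the colons of 3 female C57BL/6 mice aged 8 to 12 weeks, sorted as CD45- cells with or without surface EpCAM, and these epithelial and other cells were mixed in equal parts before droplet sequencing. A second library held sorted GFP-positive mesenchymal cells from 3 female Pdgfra-H2B-eGFP mice of the same age range, in which a nuclear GFP is expressed from the Pdgfra locus. Each library pooled its mice and cells could not be assigned to a mouse, so no value below has a replicate, no test was run, and an interval on a share of cells covers counting error only. The authors passed the UMI counts through SCTransform, which returns for each cell a whole-number corrected count as if all cells had been sequenced to 1 common depth. All levels below are mean corrected counts per cell, the depth of a cell as sequenced is unknown, and ratios are log2 of means after adding 0.01. Totals per cell lay between 6120 and 16389 (median 8972), the libraries shared 1 barcode, and Scrublet called 68 of the 3008 epithelial cells (2.26%) doublets, which were kept.

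The colon lining is renewed from crypts, in which stem cells and dividing progenitors give rise to absorptive colonocytes and to secretory cells, among them mucus-producing goblet cells, deep crypt secretory cells and hormone-producing enteroendocrine cells. Between this single cell layer and the gut bacteria lie mucus, IgA and secreted or surface-bound proteins that bind, kill or hold off microbes. Retnlb (a resistin-like molecule) and Ang4 (a ribonuclease of the angiogenin family) are known as secreted proteins that act on bacteria, Reg3b, Reg3g and Reg4 are C-type lectins, Mptx1 is a mucosal pentraxin, Saa1 is an acute-phase serum amyloid A, Defb45 belongs to the β-defensins, Lypd8 is a surface protein that holds flagellated bacteria away from the epithelium, and Pigr is the receptor that carries IgA across it.

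The epithelial cells were placed into 6 groups by fixed minimums, applied in the order given. These were set on the mucin gene Muc2 (20), Reg4 (10), the guanylin gene Guca2a (10) and the sum of 97 cell cycle genes (50). Guca2a is a hormone gene that the study lists for its absorptive lineage. There were 519 Muc2-high Reg4-low cells (17.3% of 3008), 234 Muc2-high Reg4-high cells (7.78%), 101 Reg4-high Muc2-low cells (3.36%), 532 Guca2a-high cells (17.7%), 382 proliferating cells (12.7%) and 1240 remaining cells (41.2%). Goblet markers summed to 406 and 426 per cell in the Muc2-high groups and to between 8.88 and 12.4 in the Guca2a-high, proliferating and remaining groups, and absorptive markers summed to 152 in Guca2a-high cells and to at most 10.9 elsewhere. Guca2a was not confined to Guca2a-high cells, where its mean was 53.1. It averaged 11.3, 7.31 and 5.78 in Muc2-high Reg4-low, Muc2-high Reg4-high and Reg4-high Muc2-low cells, and 0.940 and 1.76 in proliferating and remaining cells. Cells past the Muc2 or Reg4 minimum kept their group whatever their Guca2a. The Reg4-high Muc2-low cells carried enteroendocrine markers at 493 per cell beside goblet markers at 192, so they are called here by their rule. Scrublet called 7 of these 101 cells (6.93%) doublets, against 0.940% to 2.66% in the other groups. Of 5 Paneth cell markers 3 were in the table, and they summed to at most 0.690 in any group. At least 10 corrected counts of stromal, endothelial or immune markers were present in 12.9% of the epithelial cells, from 5.24% of proliferating to 19.5% of Muc2-high Reg4-low cells, against 99.5% of cells with an Epcam of 0. The median mitochondrial share was 12.9% in Guca2a-high cells and between 5.83% and 10.1% in the other groups. The part of these values and markers in any result was not tested beyond the values given without such cells.

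Reg3b and Reg3g lie on chromosome 6 of GRCm38 at 78370657-78373466 (plus strand) and 78466269-78468872 (minus strand), 92.8 kb apart. Their promoters are shown because 30 cells were high in both genes. RefSeq windows (GRCm38.p6) of the 150 bases before the transcription start were found for 9 of the 10 members, and the Reg3b window lies inside the GENCODE gene because the annotations differ in their first base. TATAAA stands in capitals in both, together with the palindrome TTCNNNGAA in Reg3b and the base that extends TATAAA to a reverse-strand TTTATNG in Reg3g.
Reg3b, chr6:78370735-78370884, plus strand: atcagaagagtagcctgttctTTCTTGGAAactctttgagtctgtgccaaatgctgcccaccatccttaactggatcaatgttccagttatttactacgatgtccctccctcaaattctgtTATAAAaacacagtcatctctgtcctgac
Reg3g, chr6:78468875-78469024, minus strand: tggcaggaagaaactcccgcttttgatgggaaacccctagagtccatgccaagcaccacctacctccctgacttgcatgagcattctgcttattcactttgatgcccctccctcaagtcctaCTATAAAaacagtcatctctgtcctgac
Of 148 aligned bases 104 were identical (70.3%). TATAAA started 29 bases before the Reg3b start and 27 before the Reg3g start. Searched on both strands of 32851 RefSeq windows of the same length, TATAAA was held by 7.57%, TTCNNNGAA by 4.09% and TTTATNG by 5.81%.

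Reg4, on chromosome 3 (98222156-98236748, plus strand), and Mptx1, on chromosome 1 (174330518-174332873, plus strand), both had their highest means in the Reg4-high groups, Reg4 by rule. Their windows are given for comparison. Capitals mark TATAAA on the reverse strand, found 82 to 77 bases before the Mptx1 start. Of the 4 motifs searched, which included CAGCTG (8.39% of windows), none was found in the Reg4 window. Only exact matches were searched, so a variant of TATAAA in either window was not counted.
Reg4, chr3:98222006-98222155, plus strand: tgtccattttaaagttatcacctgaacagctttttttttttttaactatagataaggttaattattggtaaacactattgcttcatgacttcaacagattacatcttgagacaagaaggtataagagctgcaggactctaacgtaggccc
Mptx1, chr1:174330368-174330517, plus strand: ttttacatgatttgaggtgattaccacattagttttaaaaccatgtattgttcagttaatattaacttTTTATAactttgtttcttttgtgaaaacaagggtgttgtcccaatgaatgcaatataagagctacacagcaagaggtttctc

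All 10 members were higher in epithelial cells than in the 2466 cells with an Epcam of 0, by log2 3.85 (Defb45) to 7.01 (Mptx1), where 25.9% of 12108 genes were at least 2-fold higher, and none was lower (21.3% of genes). Between 94.98% (Pigr) and 98.8% (Ang4) of each gene's corrected counts in the whole library lay in epithelial cells. Pigr was present in nearly every epithelial cell, with 99.04% above 0 and a mean of 16.3, against 12.2% and 0.168 in Epcam-zero cells. Lypd8 was almost as widespread, with 95.1% above 0 and a mean of 40.6, against 36.1% and 0.554. For Mptx1 the share of cells above 0 hardly separated the compartments, at 44.9% and 41.9%, although its mean was 82.5 against 0.632. After thinning every cell to 1000 corrected counts these Mptx1 shares were 21.2% and 7.83%. A low value of Mptx1 in a single cell was therefore read as background. The other members were above 0 in only some epithelial cells: Reg4 in 18.3%, Saa1 in 16.6%, Retnlb in 11.6%, Reg3g in 11.4%, Reg3b and Defb45 in 9.41% each, and Ang4 in 5.62%. Their shares in Epcam-zero cells ran from 0.203% (Defb45) to 4.95% (Saa1), at a median of 2779 genes per cell against 3145 in the epithelium.

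The members did not share 1 pattern across the epithelial groups. Leaving out Reg4, which defined groups, 2 of 9 members (Retnlb and Ang4) were at least 2-fold higher in Muc2-high Reg4-low cells than in the other epithelial cells (8.21% of genes were), and 4 of 9 (Lypd8, Saa1, Reg3b and Reg3g) in Guca2a-high cells (8.23% of genes). Mptx1 alone of the 9 passed in Muc2-high Reg4-high cells (5.13% of genes) and in Reg4-high Muc2-low cells (9.19%), and Defb45 alone in the remaining cells (2.46%). None of the 9 passed in proliferating cells (12% of genes). Pigr passed in no group and in neither direction. In the opposite direction 4, 6, 6, 4, 5 and 4 of the 9 were at least 2-fold lower in the Muc2-high Reg4-low, Muc2-high Reg4-high, Reg4-high Muc2-low, Guca2a-high, proliferating and remaining cells, beside 11.8%, 11%, 8.28%, 23%, 10% and 6.45% of genes. A member high in 1 group can count as lower in others, since each group was set against all other epithelial cells. Ang4 counted as lower in Muc2-high Reg4-high cells (log2 -1.13), although they had its next highest mean (0.466).

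**Figure D1:**
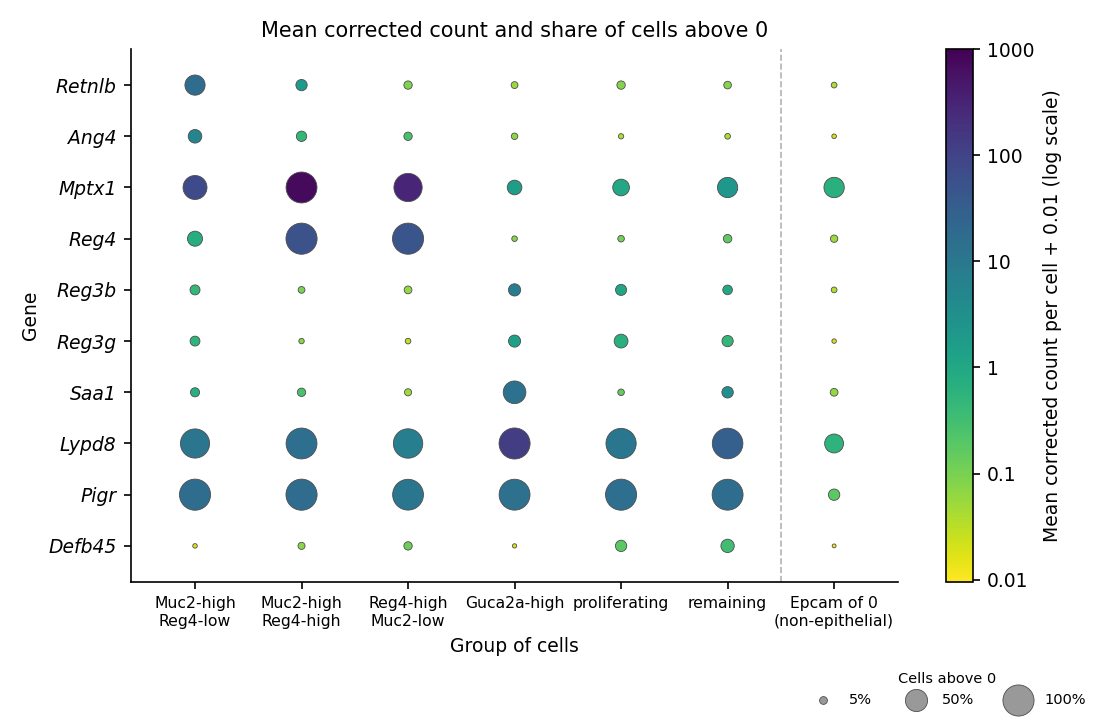
Each row is a member and each column a group of epithelial cells, with cells of Epcam 0 at the right of the dashed line; dot colour gives the mean corrected count per cell (log scale, 0.01 added) and dot area the share of cells above 0. Retnlb and Ang4 are darkest in Muc2-high Reg4-low cells, Mptx1 in Muc2-high Reg4-high cells, and Lypd8, Saa1, Reg3b and Reg3g in Guca2a-high cells, while Pigr is alike in colour across the epithelial groups.

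Retnlb had a mean of 17.3 in Muc2-high Reg4-low cells and 0.232 in all other epithelial cells (log2 6.16). Within that group 214 of 519 cells (41.2%) were above 0, the median was 0 and the highest cell reached 1018. The next group, Muc2-high Reg4-high cells, had a mean of 1.84 with 11.97% of cells above 0, and the other 4 groups had means from 0.0414 to 0.0792. Retnlb was thus concentrated in goblet-type cells low in Reg4, but more than 1 in 2 of these cells were at 0. Ang4, on chromosome 14, had the same order of its highest groups at a lower share of cells. Its mean was 5.29 in Muc2-high Reg4-low cells, where 17.9% of cells were above 0 and the highest reached 580, and 0.466 in Muc2-high Reg4-high cells. Against all other epithelial cells the Ang4 ratio was log2 5.79, or 6.41 without the cells carrying stromal, endothelial or immune markers. The last 300 transcript bases of Ang4 match Ang5, which has no row in the table, at 93.8% over 272 bases, so reads of the pair could not be told apart with certainty. Those of Retnlb match Retnlg, which was also not among the genes measured, at 83.4% over 241 bases.

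Both genes were higher in cells with more Muc2. In cells with Reg4 under 10, mean Retnlb was 0.0491 at a Muc2 of 0 to 4, 1.60 at 20 to 49, 1.61 at 50 to 99, 9.87 at 100 to 199, 23.9 at 200 to 399 and 35.8 at 400 and over. Ang4 went over the same bins from 0.0248 through 0.893, 1.10, 4.41 and 5.69 to 10.9. The bin between 0 to 4 and 20 to 49 is not listed for either gene. The share of cells with Retnlb above 0 was 13.3% at a Muc2 of 20 to 49 and 51.2% at 400 and over, and that of Ang4 12% and 26.0%. The cells with the most Muc2 were therefore the most likely to contain either transcript, although even there neither was found in all cells. The median number of genes per cell also differed, at 1784 for a Muc2 of 20 to 49 and 3409 for 400 and over, and its part was not tested.

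Some cells were high in both Retnlb and Ang4. Among the 95 of 3008 cells with Retnlb of at least 10 and the 33 with Ang4 of at least 10, 12 were shared, which is 12.6% of the former and 36.4% of the latter. Over all epithelial cells the Pearson correlation of the natural log values was 0.35, and within Muc2-high Reg4-low cells it was 0.28. High Ang4 and high Mptx1 (472 cells) were shared by 20 cells, which is 60.6% of the Ang4-high and 4.24% of the Mptx1-high cells, and the correlation of Ang4 with Mptx1 was 0.17 over all epithelial cells and 0.22 within Muc2-high Reg4-low cells.

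Reg4 itself, a marker of deep crypt secretory cells, had by rule its highest means in Muc2-high Reg4-high cells (54.4) and Reg4-high Muc2-low cells (49.7). Its values elsewhere were 0.776 in Muc2-high Reg4-low cells and at most 0.151 in the remaining 3 groups. Mptx1 followed it most closely of the members. The last 300 transcript bases of Mptx1 match Mptx2, which was not among the genes measured, at 89.5% over 294 bases. Reads that fit both could not be assigned with certainty. Mean Mptx1 was 742 in Muc2-high Reg4-high cells, where 95.3% of cells had at least 10, the median cell had 575 and the highest 2923. It was 307 in Reg4-high Muc2-low cells (median 67), 75.9 in Muc2-high Reg4-low cells (median 1, highest 2995) and between 0.958 and 2.17 in the other groups. Mptx1 was at least 2-fold higher than in other epithelial cells in both Reg4-high groups, at log2 4.79 with Muc2 and 2.04 without, but the latter fell to 0.62 when the Muc2 minimum was set at 10, which left 59 cells. In Muc2-high Reg4-low cells the ratio of means was log2 -0.14, against 1.18 when means of log values were used.

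Within Muc2-high cells Mptx1 was higher at higher Reg4. Its mean was 43.3 in the 403 cells with Reg4 at 0, 153 at a Reg4 of 1 to 4, 273 at 5 to 9, 509 at 10 to 19, 716 at 20 to 39, 909 at 40 to 79 and 720 in the 49 cells at 80 and over. Retnlb went the other way up to a Reg4 of 79. Its mean was 19.7 at a Reg4 of 0, then 10.3, 5.89, 3.36, 1.21 and 0.127, with 4 at 80 and over. The share of cells with Retnlb above 0 was 42.4%, 43.2%, 22.9%, 11.1%, 14.8%, 7.59% and 16.3% over these bins. Among the 45 cells at 10 to 19, 1 cell had a Retnlb of 146, so that mean rests mostly on it. Among the 49 cells at 80 and over, 1 cell had 173, so the mean of 4 likewise rests mostly on 1 cell. Over all epithelial cells the correlation of Reg4 with Mptx1 was 0.77. It was 0.48 inside the Muc2-high Reg4-low group, 0.07 inside the Muc2-high Reg4-high group and -0.33 in Reg4-high Muc2-low cells. In Guca2a-high, proliferating and remaining cells it was 0.68, 0.47 and 0.41. Reg4 was above 0 in only 10 of 532, 12 of 382 and 77 of 1240 cells of these groups, so these correlations rest on few cells. Of 335 cells with Reg4 of at least 10, 294 (87.8%) also had Mptx1 of at least 10, which is 62.3% of the 472 cells high in Mptx1.

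**Figure D2:**
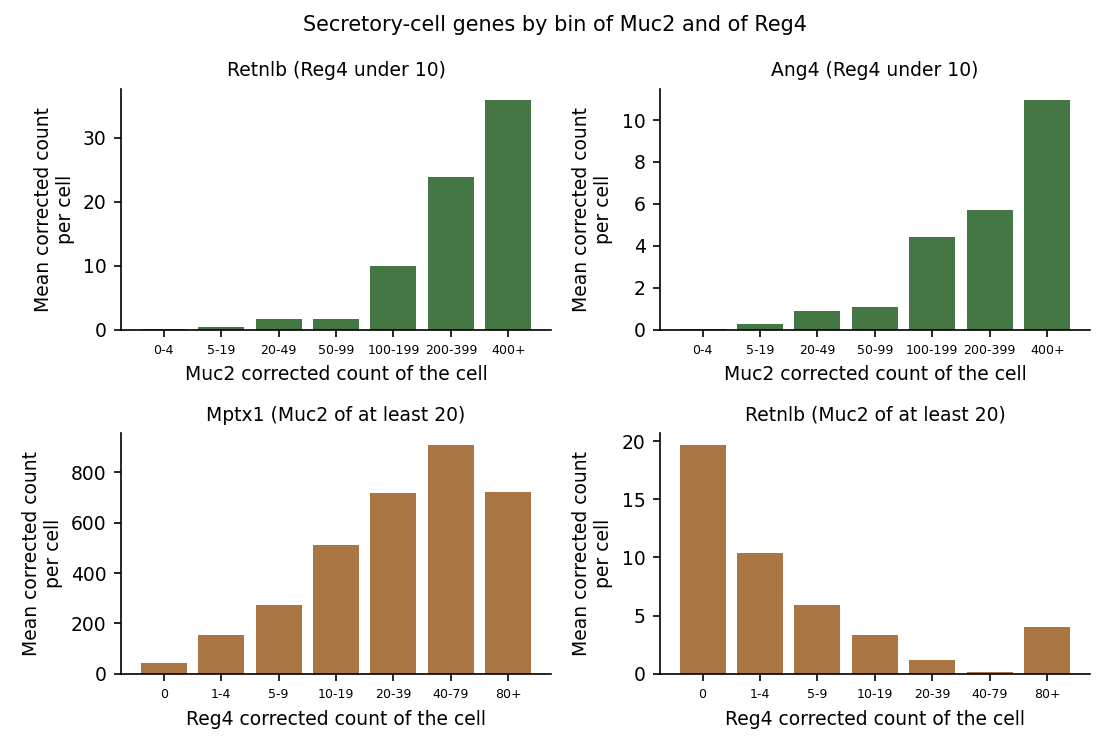
Bars give the mean corrected count per cell of Retnlb and Ang4 by bin of Muc2 in cells with Reg4 under 10 (top), and of Mptx1 and Retnlb by bin of Reg4 in cells with Muc2 of at least 20 (bottom); there is 1 library and no error bar. Retnlb climbs to 35.8 at the highest Muc2, and along Reg4 Mptx1 peaks at 909 where Retnlb is lowest, at 0.127.

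Set directly against each other, the Muc2-high groups differed in 7 of the 9 members. Retnlb (log2 3.22), Ang4 (3.48), Reg3g (2.98), Reg3b (2.23) and Saa1 (1.44) were at least 2-fold higher in the Reg4-low group, beside 5.9% of genes. Mptx1 (-3.29) and Defb45 (-1.98) were at least 2-fold lower there, beside 4.82% of genes. Lypd8 (-0.50) and Pigr (-0.07) were on neither side. Among the 5, only Retnlb and Ang4 had means above 1 in the Reg4-low group. The share of cells above 0 was 41.2% against 11.97% for Retnlb and 17.9% against 9.83% for Ang4. The Ang4 means rest on few cells, as 5 epithelial cells held 50% of its counts. Reg3b (0.439 against 0.0855), Reg3g (0.541 against 0.0598) and Saa1 (0.699 against 0.252) were low in both groups, and for Reg3b the ratio was 0.75 without cells carrying stromal, endothelial or immune markers. Defb45 rested on 4 cells above 0 of 519 against 9 of 234.

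Lypd8 was the member most widely high in the absorptive cells. It was above 0 in 530 of 532 Guca2a-high cells, with a median of 116, a mean of 129 and a highest value of 503, against a mean of 21.7 in all other epithelial cells (log2 2.57). In the remaining cells its mean was 31.6 (median 11), and in the other 4 groups it was between 7.48 and 16.2. In the 2154 cells low in Muc2 and Reg4, mean Lypd8 stepped up in each bin of Guca2a, from 14.4 at 0 to 1 through 34.7, 83.6, 98.6, 126 and 144 to 153 at 80 and over. No other member rose over all 7 bins.

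Saa1 was high in fewer cells. In Guca2a-high cells 52.3% were above 0, the median was 1, 24.2% had at least 10, the highest reached 495 and the mean was 12.9, against 1.81 in all other epithelial cells (log2 2.82). Saa1 averaged 3.24 in the remaining cells and at most 0.699 in the other 4 groups, with 0.134 in proliferating cells. Over the Guca2a bins its mean was 1.19, 3.19, 8.85, 14.7, 18.0, 10.3 and 8.29, and the share of cells above 0 rose from 5.33% to 74.6%. Most cells of the highest Guca2a bin were above 0 for Saa1 at low values (median 2), while its mean was highest at 20 to 39. Its near copy Saa2, with 93.3% identity over the last 300 transcript bases, had a mean of 0.00964 in the epithelium, and reads that fit both could not be assigned with certainty.

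Reg3b was high in a small part of several groups. In Guca2a-high cells 76 of 532 (14.3%) were above 0, 7.89% had at least 10, the highest reached 483 and the mean was 7.87, against 0.778 in all other epithelial cells (log2 3.32). Its means were 1.11 in proliferating and 1.01 in remaining cells, with 11.5% and 8.31% of cells above 0, and at most 0.439 in the secretory groups. The share of Epcam-zero cells above 0 was 2.11%. Reg3g had its highest mean in Guca2a-high cells as well, 1.32 against 0.450 in the others (log2 1.53), but its largest share of cells above 0 in proliferating cells, 18.6% against 13.9% in Guca2a-high cells. That order turned after thinning to 1000, to 4.97% against 6.203%, and 1.57% of proliferating against 4.14% of Guca2a-high cells had at least 10, at a median of 3485 against 2905 genes per cell. With means of log values the Reg3g ratio was 0.91, under 2-fold.

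Along Guca2a both lectins had a raised middle and a low end. Mean Reg3b was 1.07, 0.875 and 1.06 in the lowest 3 bins, 9.24, 10.6 and 10.9 from 10 to 79, and 0.0246 at 80 and over, where 3 of 122 cells (2.46%) were above 0. Reg3g was 0.523, 0.503 and 0.390, then 1.40, 1.94 and 1.76, then 0.0984. The share of cells with Reg3b above 0 was 20.3% at a Guca2a of 20 to 39, so the step in the mean came from about 1 in 5 cells. The cells with the most Guca2a were low in both Reg3 genes and high in Lypd8.

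Between the highest and the lowest Guca2a bin, Lypd8 (log2 3.41) and Saa1 (2.79) were at least 2-fold higher, beside 12.3% of genes. Reg3b (-4.97), Reg3g (-2.30), Mptx1 (-2.53), Pigr (-1.03) and Defb45 were at least 2-fold lower, beside 41.6% of genes, and the median log2 ratio of all genes was -0.70. Pigr went from 15.7 in the lowest bin through a highest value of 19.8 at 5 to 9 to 7.73 at 80 and over. Defb45 fell from 0.363 to 0.0329 at 10 to 19 and was at 0 in all cells of the top 3 bins, where 0 of 122 cells at 80 and over allows a share of up to 2.46% for cells with a value above 0, not for cells that express the gene. The median mitochondrial share of a cell moved with the bins, from 9.32% to 13.6%, and only 8 cells of the top bin were under 10%, so its part was not tested there.

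**Figure D3:**
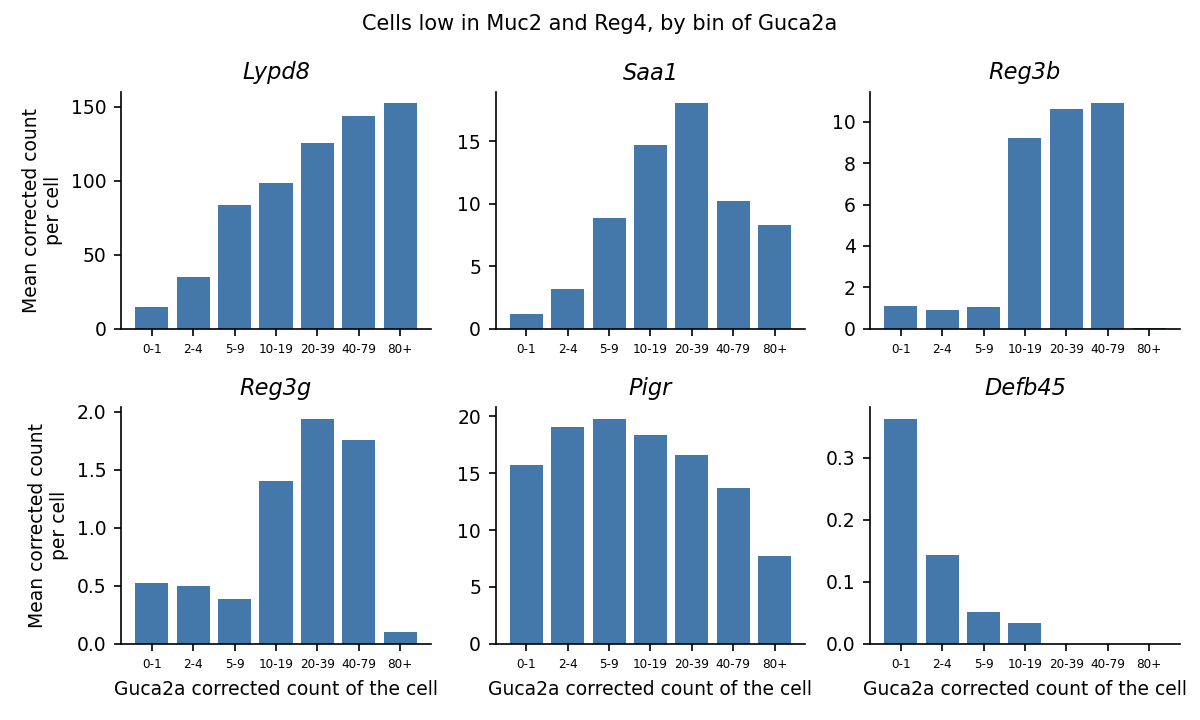
Bars give the mean corrected count per cell of 6 members by bin of Guca2a (horizontal axis, corrected count of the cell) in the 2154 cells low in Muc2 and Reg4, from 1 library without error bars. Lypd8 steps up to 153, Saa1 is highest at 18.0 in the middle, Reg3b and Reg3g stand high from 10 to 79 and drop to 0.0246 and 0.0984 at 80 and over, and Defb45 falls to 0.

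Saa1 and Reg3b, both highest on average in Guca2a-high cells, were rarely high in the same cell. Of 193 cells with Saa1 of at least 10 and 84 with Reg3b of at least 10, 1 cell was shared, which is 0.518% of the former and 1.19% of the latter. Saa1 was above 0 in 16.7% of the 84 cells, much as in all epithelial cells (16.6%). Reg3b was above 0 in 2.59% of the 193 cells, against 9.41% of all epithelial cells. The correlation of Saa1 with Reg3b was weak, at -0.05 over all epithelial and -0.19 within Guca2a-high cells. All 193 cells high in Saa1 had Lypd8 of at least 10, against 61 of the 84 cells high in Reg3b (72.6%). Reg3b and Reg3g were found together more often, with 30 shared cells, or 35.7% of the 84 and 63.8% of the 47 cells with Reg3g of at least 10. Their correlation was 0.62 over all epithelial cells, 0.71 within Guca2a-high, 0.68 within proliferating and 0.52 within remaining cells. The last 300 transcript bases of Reg3b and Reg3g are 79.5% identical.

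The cells high in Saa1 and in Reg3b also carried different absorptive genes, a comparison chosen after seeing the data. Cells high in Saa1 averaged 10.1 for the water channel gene Aqp8 and 35.7 for the carbonic anhydrase gene Car1, and cells high in Reg3b averaged 0.107 and 127. When the Guca2a-high cells were split by whether Cyp2c55, a cytochrome P450 gene, or Saa1 was higher, the 347 cells with more Cyp2c55 had mean Reg3b of 12.05 and Reg3g of 1.99, with 20.2% and 19.3% of cells above 0. The 141 cells with more Saa1 had 0.0284 and 0.0213, with 2.84% and 2.13% above 0. Lypd8 was high in both, at 111 and 198, and Pigr was close, at 14.2 and 13.3. Within cells with more Cyp2c55, Reg3b again stood at 20.6, 17.4 and 14.1 in the Guca2a bins from 10 to 79 and at 0.0300 in the 100 cells at 80 and over. In these cells Lypd8 rose in each Guca2a bin, from 15.6 at 0 to 1 to 148 at 80 and over. In cells with more Saa1 Lypd8 did not rise in each bin. It was 68.1 at 0 to 1, 193 at 5 to 9, 185 at 10 to 19, 239 at 40 to 79 and 173 in the 22 cells at 80 and over.

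**Figure D4:**
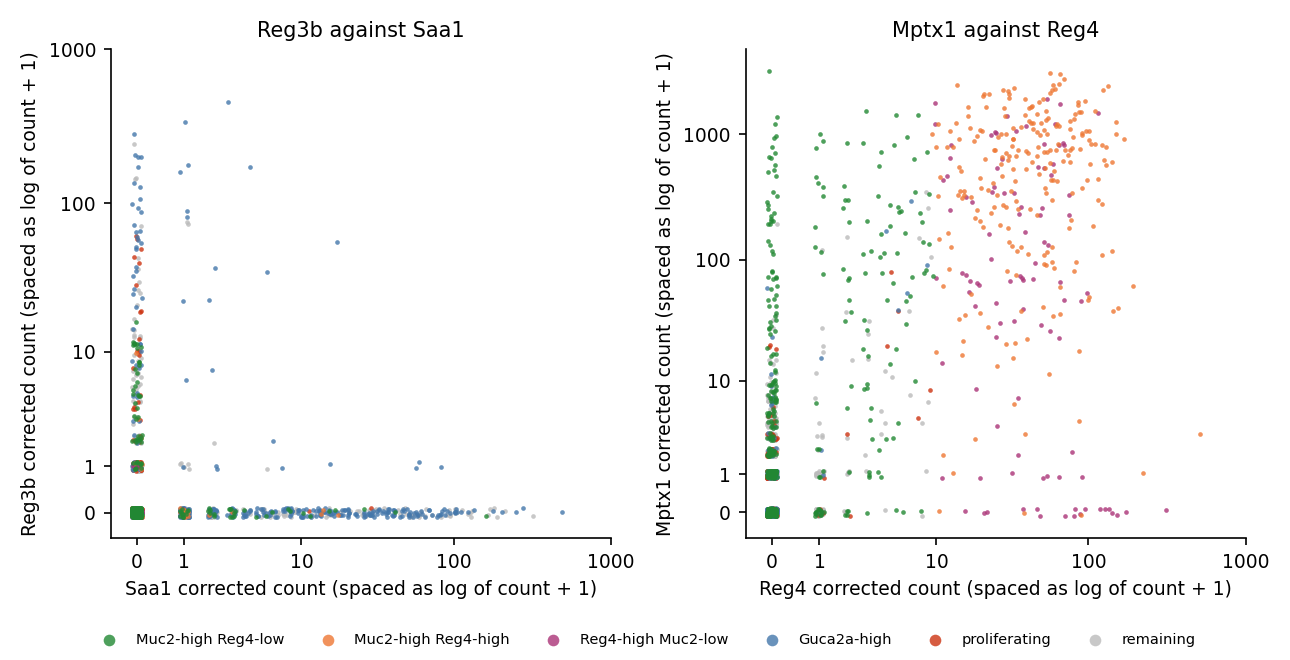
Each point is 1 of the 3008 epithelial cells, coloured by group, with small random offsets; axes are corrected counts spaced as the log of count + 1. Reg3b and Saa1 (left) are at 10 or more together in 1 cell, and Mptx1 and Reg4 (right) in 294 cells.

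Pigr differed least among groups. Its mean ran from 10.6 in Reg4-high Muc2-low cells to 17.7 in Muc2-high Reg4-high cells, a ratio of 1.67, and its median from 10 to 16. At least 98.0% of cells in every group were above 0. Pigr was also present in the 112 cells with Lgr5, a stem cell gene, of at least 2, all of which were above 0 with a mean of 14.0. The lowest mean of the cell sets examined was in the 86 cells with the enteroendocrine gene Chga of at least 10, where it was 5.92 with 79.1% above 0, a set chosen after seeing the data. The same Chga-high cells had 3.76 for Lypd8 and 20.9 for Reg4, and 55 of them lay in the remaining group.

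Defb45 was a low transcript, with its highest mean in cells low in all 4 grouping measures and the next highest in proliferating cells. Its mean was 0.315 in the remaining cells, with 17.3% above 0 and a highest value of 12, 0.178 in proliferating cells with 12.04% above 0, and between 0.00771 and 0.119 in the other groups. Against all other epithelial cells the ratio in the remaining cells was log2 2.25, and 1.24 after thinning to 1000. In Epcam-zero cells 0.203% were above 0. The highest Defb45 of the sets examined after seeing the data was in the 223 cells with the hair-type keratin gene Krt36 of at least 2, with a mean of 0.659 and 33.6% above 0, against 0.124 in the other epithelial cells.

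In cells low in Muc2, Reg4 and Guca2a, the sum of cell cycle genes separated the members further. Mean Saa1 was 2.67 at a sum of 0 to 14, 4.01 at 15 to 24, 2.31 at 25 to 49, 0.101 at 50 to 99, 0.309 at 100 to 199 and 0.00877 at 200 and over, where 1 of 114 cells was above 0. Lypd8 was 39.7 at 15 to 24 and between 7.96 and 12.8 from 50 upward. Saa1 and Lypd8 were thus lower in every bin from 50 upward than in the 3 bins under 50. At 200 and over, Reg3b had a mean of 1.67, Reg3g 0.912, Pigr 15.8 and Defb45 0.193, with 10.5%, 19.3%, 100% and 13.2% of cells above 0. Of these, Reg3b had ranged from 0.524 to 1.74 over the lower bins and Reg3g from 0.254 to 0.857. Median genes per cell rose over these bins from 2506 at 0 to 14 to 3556 at 200 and over.

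How evenly a gene was spread over the epithelium divided the members from Ang4 to Pigr. For Ang4, 5 cells of 3008 held 50% of all corrected counts, for Retnlb 10, for Reg3b 15, for Reg3g 29 and for Saa1 41. For Defb45, Mptx1 and Reg4 it took 71, 75 and 84 cells, for Lypd8 264 and for Pigr 850. The 30 highest cells held 90.04% of Ang4, 74.0% of Retnlb and 70.6% of Reg3b, against 9.13% of Lypd8 and 3.37% of Pigr. Group means of Ang4, Retnlb and Reg3b therefore rest on few cells. Together the 10 members made up 1.66% of all corrected counts of the epithelium, 8.47% in Muc2-high Reg4-high cells, 1.74% in Guca2a-high cells and 0.311% in proliferating cells, and at most 30.1% in a single cell.

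**Figure D5:**
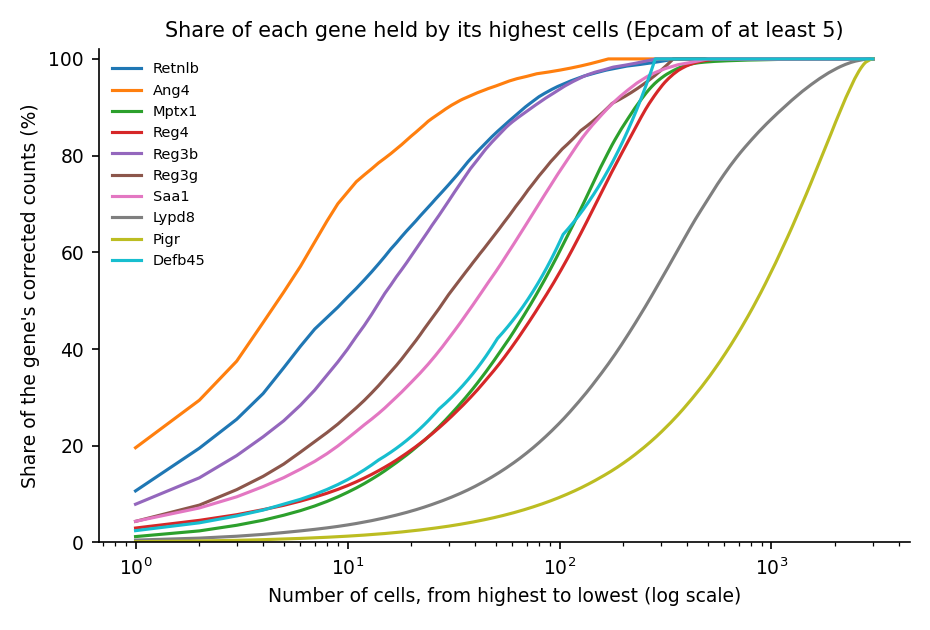
Cumulative share of each member's corrected counts (vertical axis, percent) over epithelial cells ordered from the highest down (horizontal axis, number of cells, log scale). The curve of Ang4 reaches 50% at 5 cells and that of Pigr at 850.

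The genes most like each member, by Pearson correlation of natural log values over the 3008 cells and 10734 genes, are a description, since cells of 1 library share depth and free RNA. Retnlb was most like Cgref1, B3gnt6 (an O-glycan synthase) and Plet1, each at 0.49. Ang4 was most like Clca1 (a goblet cell mucus protein, 0.49), Fer1l6 (0.47) and Capn9 (0.45). Neither had Muc2 or the other among its leading 3. Mptx1 was most like Sval1 (0.86), Best2 (a bestrophin anion channel, 0.83) and Reg4 (0.77), and Reg4 was most like Best2 (0.80), Mptx1 (0.77) and Sval1 (0.75). Mptx1 and Reg4 were thus each among the 3 genes most like the other, and both lists held Best2 and Sval1.

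Saa1 was most like Aqp8 (0.79), Cyp2d34 (0.78) and Ceacam20 (0.76), and Lypd8 most like Phgr1 (0.80), 2200002D01Rik (0.79) and Mgst3 (0.79). Reg3b and Reg3g were most like each other (0.62), followed by Prkg2 (a cGMP-dependent kinase) at 0.36 and 0.31, then Slc51a (0.35) for Reg3b and the homeobox gene Isx (0.31) for Reg3g. Adh1 (0.46) and Fut9 (0.42) were among the genes most like Defb45, and Pigr was most like the transcription factor genes Klf5 (0.40) and Cdx1 (0.38) and Tspan8 (0.37). The highest correlation of Pigr was the lowest among the leading ones of the 10 members.

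Of 69 other defence genes listed by role, 56 were in the table and 38 had a mean of at least 0.05 in the epithelium. Counting genes with such a mean in epithelial or in Epcam-zero cells, 4 of 5 lectins, 7 of 11 antimicrobial peptides and enzymes, 5 of 5 oxidases, 5 of 5 mucus genes and 3 of 12 receptors and signalling genes were at least 2-fold higher in the epithelium, beside the 25.9% of all genes given above. At least 2-fold lower, beside 21.3% of all genes, were 2 of the 11 peptides and enzymes (Lyz2, log2 -4.09, and Gbp2, -3.36) and 2 of 2 IgA and surface GPI protein genes (Jchain, -6.17, and Ly6a, -2.28). Other metal-capture and acute-phase genes were at or near 0 in the epithelium: Lcn2 and Saa3 had means of 0.000332 and 0.0259. The receptor gene Il22ra1 had a mean of 0.0103.

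The other lectins are given beside the members that were high in the same groups. Zg16, which binds bacteria in mucus, had means of 54.6 and 105 in the Reg4-low and Reg4-high Muc2-high groups and at most 3.22 elsewhere, so it was high beside both Retnlb and Mptx1, and Itln1 was likewise at least 2-fold higher in both (0.603 and 0.385). Lgals3 and Lgals4 were highest in Guca2a-high cells (56.7 and 76.4), with Lypd8, and Lgals9 was 0.810 there and 0.678 in Muc2-high Reg4-low cells. Among peptides and enzymes, Pglyrp1 (a peptidoglycan-binding protein, 8.51), Ang (1.92) and Wfdc18 (1.78) were highest in Muc2-high Reg4-low cells, with Retnlb and Ang4, and Sprr2a3 was highest in Guca2a-high cells (11.7). Wfdc2 was highest in the remaining cells (8.80), with Defb45. Dmbt1, a mucosal scavenger receptor protein, was 16.8 in proliferating and 15.6 in Guca2a-high cells and at most 1.77 in the secretory groups. The oxidase genes Nox1 (0.594) and Noxa1 (1.30) were highest in proliferating cells, where none of the 9 members was at least 2-fold higher, and the cytokine gene Il18 was highest in Guca2a-high cells (4.53).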

How the data were processed

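Droplet single-cell RNA sequencing gave 1 library of wild-type colon and 1 of sorted reporter-positive mesenchyme, each pooled from 3 mice. The authors aligned reads to mm10 with Cell Ranger, filtered cells in Seurat 3.1 under R 3.6.2 and applied SCTransform. The deposited score values are its whole-number corrected counts, and the deposited natural log values were taken from these numbers after adding 1. This was read from the values, and the planned UMI counts were not used. The members and all lists were chosen with earlier results of these data known. The genes named are the 10 members, the grouping genes, the 3 genes most like each member and the listed defence genes and markers, of which 1 is not reported here. Means, ratios (pseudocount 0.01, called at 2-fold, genes with a mean of at least 0.05 in 1 of the cell sets compared) and Clopper-Pearson 95% intervals were computed in Python 3.11.15 with numpy 2.4.6 and scipy 1.17.1, Scrublet was run in scanpy 1.11.5, and figures were drawn in matplotlib 3.10.9. The cell cycle genes, 97 of 97 in the table, came from Seurat 5.3.0. Positions came from GENCODE M21, transcript ends were compared with BLAST 2.17.0, and scripts were tested on simulated data. Alternatives changed each minimum, the fold, pseudocount, scaling, doublets, mitochondrial share and cells with other markers.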

Additional observations from a re-analysis of the deposited data

Results flagged for a closer look

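All 10 members gave values above 0 in the reporter library of sorted GFP-positive mesenchymal cells, which enters no comparison here, and each lay above the share of 0.0680% that a count of 0 would allow in its 4409 cells. The share of cells above 0 was 1.91% for Mptx1, 1.77% for Lypd8, 1.25% for Pigr, 0.93% for Reg3b, 0.567% for Retnlb, 0.386% for Reg4, 0.34% for Reg3g, 0.249% for Saa1, 0.204% for Ang4 and 0.159% for Defb45. Epcam was above 0 in 1.43% of these cells. That limit covers counting error only, any gene found in more than 3 cells passes it, and it is no measure of background.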

How the results depend on the processing

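No paired analysis was possible because there is 1 library and no test, and no replicate could be left out. Over 20 alternative settings 193 of 198 counts and summary values kept within 1.5 times. The count of members higher in Reg4-high Muc2-low cells went from 1 to 0 with a Muc2 minimum of 10, and that of members higher in Muc2-high Reg4-high than in Reg4-low cells from 2 to 1 after thinning to 1000, with a pseudocount of 0.1, at 4-fold and with a Muc2 minimum of 50, each through Defb45. Of 1460 member ratios 1408 kept their direction and side of 2-fold, 34 fell under it, 14 passed it and 4 turned. With means of log values, the ratio over other epithelial cells turned from -0.14 to 1.18 for Mptx1 in Muc2-high Reg4-low cells and from -1.13 to 0.57 for Ang4 in Muc2-high Reg4-high cells. In cells under 10% mitochondrial, it turned from -1.44 to 0.12 for Reg3b in remaining cells, and the ratio of the Guca2a ends turned from 0.90 to -1.98 for Ang4, with 8 cells in the top bin. The cause was not tested. Corrected counts hide the depth sequenced, and values near 1 count per cell need not be transcripts of that cell.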
